A study of Zea mays with 6 samples.

Results

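The 200 genes described here were the steadiest transcripts of moderate to high level across 6 RNA sequencing libraries of immature maize anthers. They were chosen by their coefficient of variation (CV, the SD over the 6 libraries divided by the mean), so their low spread is the rule itself and not a result. The rule took genes with a mean of at least 500 normalized counts and set aside the 200 genes with the highest mean in wild type. It also left out a run of gene IDs, from Zm00001eb078500 to Zm00001eb082500, where 74 genes would otherwise have entered. This left a pool of 9757 of the 39756 genes in the table, from which the 200 with the lowest CV were taken, or 2.05% of the pool.

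The libraries came from anthers whose meiocytes were in meiosis I, a tissue in which the meiocytes are enclosed by somatic wall layers. Per the labels and the series' design text, 3 libraries were from plants homozygous for mop1 (Mo17/B73;mop1/mop1) and 3 from wild-type siblings (WT, Mo17/B73;+/+), so both groups shared the Mo17/B73 hybrid background. The mop1 allele, the age of the plants, and whether a library held 1 plant or several are not stated in the labels. Where libraries came from 1 source, p-values then measure technical spread alone. Recovered reads per library ranged from 22635163 to 26531475. Across the pool mop1 replicate 3 stood apart: the SD of its log2 deviations from the gene means was 0.77, against 0.30 to 0.45 in the other libraries.

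As background, mop1 encodes an RNA-dependent RNA polymerase that makes double-stranded RNA, the source of small RNAs that guide DNA methylation to transposons and other repeats, many of them close to genes. Transcripts that hold a constant level across tissues, stages or genotypes are used in plant work as internal references, because every other transcript is read relative to them. A normalized RNA-seq count has the same property: it is relative to whatever set of genes was taken to be constant. In bulk anthers, fewer cells of a type and less RNA per cell cannot be told apart, and a constant value can hold opposite changes in different cells.

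The IDs in the table carry no names, and 0 of them matched the 49888 genes of the reference table used here (RefSeq, B73 NAM-5.0). The members are therefore given by ID, with no function, position or sequence. The planned lists of reference transcripts, proteasome, splicing, translation and meiotic genes, and the markers of tapetum, meiocytes, other anther wall layers and green tissue, were not analysed here, so the labelled tissue was not checked against its markers.

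The members covered most of the range of levels in the pool, but not its upper end. Their means ran from 509 to 5549 normalized counts with a median of 999. The pool reached 8235, with a median of 1082. With the pool cut by mean into 5 bins of equal size, the share of genes that were members was 2.10%, 2.46%, 2.15%, 2.15% and 1.38% from the lowest to the highest bin. The median CV of all genes in the highest bin was 21.6%, against 18.7% to 19.2% in the others. Of the 200 genes, 100 had a mean of at least 1000.

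The CV of the members ran from 1.70% to 6.31%, with a median of 5.28%. The median in the pool was 19.3%. In 194 of the 200 genes the highest library was less than 1.2 times the lowest. The highest ratio in the set was 1.21, and the median ratio in the pool was 1.68. The 200 genes set aside as the highest in WT had a median CV of 30.1%. Of these, 3 had a CV under the limit of the members, with Zm00001eb201570 at 5.09%, Zm00001eb252870 at 5.48% and Zm00001eb213760 at 6.17%. These 3 are named after their values were seen. None of the 74 genes in the excluded run of IDs had a CV that low, the lowest being 7.16%.

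**Figure D1:**
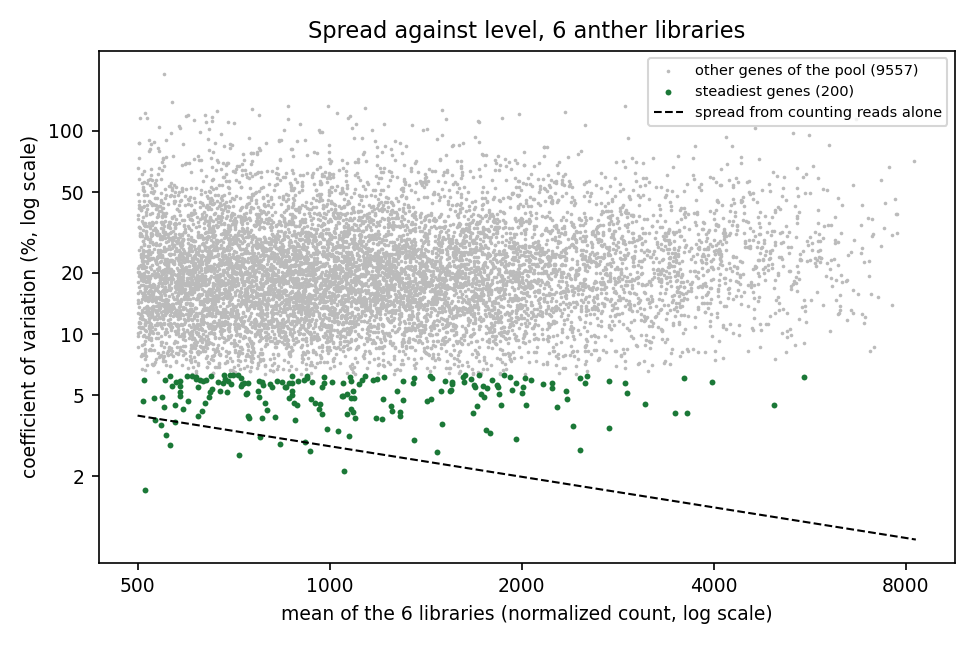
Coefficient of variation over the 6 libraries (percent, log scale) against mean normalized count (log scale) for the 9757 genes of the pool; green points are the 200 members, grey points the other genes, and the dashed line is the spread given by counting reads alone, at the mean worth of 1 read. The members lie at or under 6.31% at all levels up to 5549, and 12 of them lie under their own counting spread.

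The counting of reads adds a spread of its own to these values. A member had between 591 and 8211 reads in a library, and for counts of that size the spread given by counting alone came to a CV of 1.19% to 3.93%, with a median of 2.81%. The variance of the members over the 6 libraries was 3.27 times the counting variance at the median, against 55.7 times in the pool. With the deposited scaling it was lower than the counting variance in 12 members, and in 36 it was less than 2 times as large. Genes were picked for low spread, which favours such values, so these counts are a description. They cover counting error only.

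The steadiest gene, Zm00001eb207370, had 509, 513 and 508 normalized counts in the mop1 libraries, in the order of replicates 1 to 3, and 522, 525 and 503 in the WT libraries. The CV over all 6 values was 1.70%, less than the 3.92% that counting gives at its 613 to 699 reads per library. WT replicate 2 was highest and WT replicate 3 lowest, so the mop1 values lay inside the WT range. Zm00001eb223200, the next in order, had 1069, 1038 and 1067 normalized counts in mop1 and 1022, 1053 and 1082 in WT (CV 2.11%). Here too WT held both the highest and the lowest value.

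Zm00001eb099600 had 714, 728 and 746 normalized counts in mop1 and 701, 730.3 and 699 in WT (CV 2.55%). Zm00001eb330840 had 1458, 1508 and 1478 in mop1 and 1452, 1521 and 1416 in WT (CV 2.63%). In both genes WT replicate 3 was the lowest library and the groups overlapped. Zm00001eb211200 was within 918 to 928 normalized counts in the WT libraries, an SD of 5.60, and had 898, 957 and 965 in mop1 (CV 2.65%). Its extremes were both mop1 libraries, replicate 1 being lowest and replicate 3 highest.

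The most abundant of the 10 steadiest, Zm00001eb407650, had 2526, 2526 and 2475 normalized counts in mop1 and 2481, 2473 and 2345 in WT (CV 2.69%). Its 2885 to 3403 reads per library put the counting spread at 1.78%, so its variance was 2.27 times the counting variance. WT replicate 3 was again the low library, and the other 5 lay within 2473 to 2526. Zm00001eb312480 had 552, 537 and 581 in mop1 and 573, 568 and 558 in WT (CV 2.84%). Zm00001eb051830 had 809, 864 and 817 in mop1 and 826, 867 and 838 in WT (CV 2.86%). In these 2 genes the mop1 mean was the lower one, 557 against 566 and 830.1 against 844, by less than the SD of the mop1 libraries (22.6 and 29.5).

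Zm00001eb425160 had 911, 915 and 925 normalized counts in mop1, an SD of 7.07, and 962, 906 and 880.2 in WT, an SD of 41.8. Zm00001eb143480 had 1384, 1356 and 1356 in mop1 and 1379.9, 1389 and 1279 in WT (CV 3.00%). In both, the mop1 libraries lay inside the WT range and WT replicate 3 was lowest. All 10 genes had overlapping groups. With the deposited scaling, 7 of these 10 had a variance under the counting variance. Under TMM scaling the CVs of Zm00001eb223200, Zm00001eb099600, Zm00001eb211200, Zm00001eb051830 and Zm00001eb425160 were 2.80%, 3.34%, 3.21%, 4.56% and 3.31%. Each of these was above the gene's counting spread at the deposited scaling. Those of Zm00001eb207370 and Zm00001eb312480, 3.07% and 1.15%, stayed below it.

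**Figure D2:**
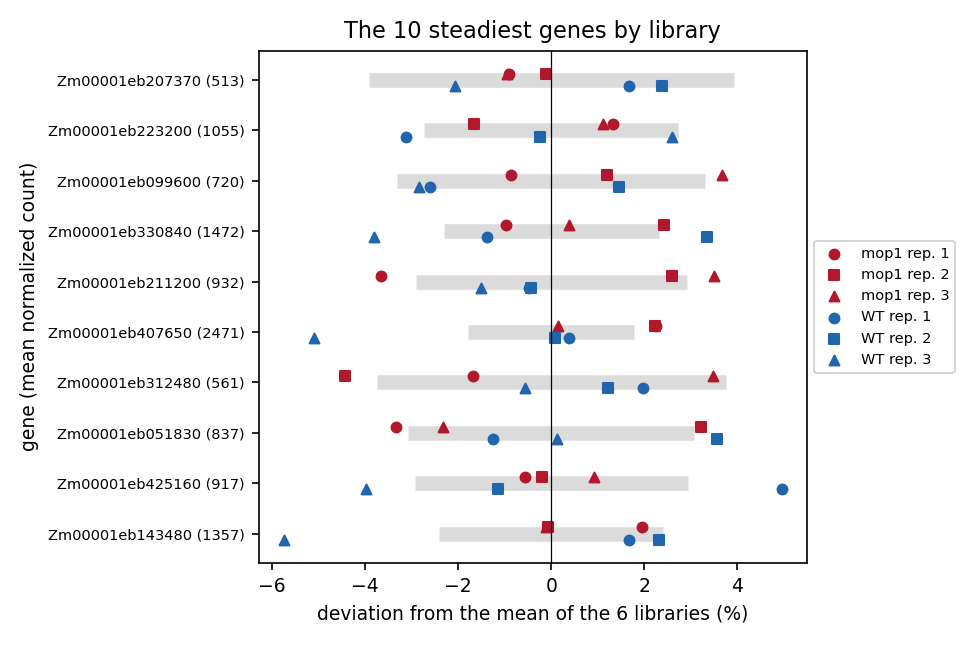
Deviation of each library from the mean of the 6 (percent) for the 10 steadiest genes, with the mean normalized count in brackets; red is mop1, blue is WT, symbols are replicates 1 to 3, and the grey band is 1 counting SD on each side. The points of both genotypes are mixed in every gene, and WT replicate 3 is the lowest point in 6 of the 10.

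At the limit of the set the spread was wider. The last 3 members were Zm00001eb096990 (CV 6.30%), Zm00001eb292530 (6.31%) and Zm00001eb206740 (6.31%). The first 3 genes outside were Zm00001eb063390 (6.33%), Zm00001eb146280 (6.34%) and Zm00001eb362860 (6.35%), so no gap in CV separated members from non-members. Zm00001eb292530 had 1705, 1707 and 1688 normalized counts in WT but 1787, 1866 and 1542 in mop1. Its CV was 0.61% within WT and 9.74% within mop1. In Zm00001eb096990, with 666, 735 and 688 in mop1 and 689, 609 and 708 in WT, the low library was WT replicate 2.

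The highest member by mean, Zm00001eb258320, had 5673, 5145 and 5971 normalized counts in mop1 and 5823, 5519 and 5159.9 in WT (CV 6.16%). With 6439 to 8211 reads per library its variance was 26.8 times the counting variance, the largest ratio in the set. The lowest member, Zm00001eb012980, had 544, 503 and 528 in mop1 and 477, 507 and 497 in WT (CV 4.67%), and its variance was 1.41 times the counting variance. The spread of the abundant gene thus lay far above that from counting, and the spread of the low gene lay nearer to it.

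Between genotypes the members differed little, which the rule fixed in advance by using all 6 libraries. The difference between mop1 and WT in mean log2(normalized count + 1) ran from -0.13 to 0.16. Its size was 0.05 at the median, against 0.20 in the pool. The mop1 mean was the higher one in 123 members and the lower one in 77. The median difference was 0.02 in the members and -0.02 in the pool. The sign of so small a difference can turn with the scaling: for Zm00001eb207370 it was -0.019 in limma on the deposited values and 0.009 in edgeR. Within mop1 the median CV of the members was 4.72% and within WT 4.46%, where the pool had 20.0% and 11.9%. The wider spread of the pool within mop1 was thus not present in the members, as the rule required.

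The largest differences inside the set show how large a shift still passed the rule. Zm00001eb334820 had 919, 936 and 902 normalized counts in mop1 and 803, 849 and 823 in WT, with every mop1 library above every WT library. Its means were 919 ± 16.9 and 825 ± 22.7 (SD, n = 3 each), a log2 difference of 0.16. Zm00001eb106900 had 722, 769 and 723 in mop1 and 649, 703 and 660.3 in WT, a log2 difference of 0.14 with no overlap. In the other direction, Zm00001eb065750 had 1674, 1789 and 1791 in mop1 and 1952, 1860.1 and 1931 in WT, a log2 difference of -0.13. Zm00001eb076120 had 3470.5, 3474 and 3387 in mop1 and 3539, 3767 and 3962 in WT, a log2 difference of -0.12. In both of these every mop1 library lay below every WT library.

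Groups did not overlap in 23 members. In 15 of them all mop1 libraries were higher, and over all 23150 genes tested that share was 7.5%. In 8 of them all mop1 libraries were lower, and over all genes tested that share was 10.2%. Within the pool the shares were 7.65% and 10.9%. The members were chosen on the same libraries, so nothing is read from these counts.

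All 200 members were among the genes tested. By limma, 0 of them had an adjusted p of at most 0.05, where 0.0216% of all tested genes did. At an unadjusted p of at most 0.05 there were also 0, against 10.4% of all tested genes. edgeR's quasi-likelihood test on the recovered reads called 0 members, with 0.013% of tested genes called, and DESeq2 called 0, with 1.92% called. The background rests on single libraries: limma called 207 of 22897 genes without mop1 replicate 3, 51 without mop1 replicate 1 and 1 without mop1 replicate 2. Without each WT library in turn it called 0, with 1354 to 1592 genes at an unadjusted p of at most 0.05. With a replicate block DESeq2 called 985. No member was called in any of these fits. The rule used this contrast, so the members' counts and intervals describe the choice. The 95% intervals of the fold change, taken gene by gene in limma, reached at most 1.24-fold to 1.38-fold in either direction, with a median of 1.30-fold, against 1.65-fold in the pool. The members' median standard error of the log2 difference was 0.13 in the fit, which draws each variance toward that of genes of like level. From their own values it was 0.06, which the choice for low spread makes small. In the pool it was 0.21 by either route.

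The members did not all vary in the same library. WT replicate 3 was the lowest library in 51 members (25.5%), and mop1 replicate 3 was the highest in 48 (24.0%). In the pool WT replicate 3 was lowest in 10.6% of genes, and mop1 replicate 3 was highest in 36.2% and lowest in 20.8%. In the members, mop1 replicate 3 was lowest in 18 (9%). The median log2 deviation of the members was 0.03 in mop1 replicate 3 and -0.03 in WT replicate 3, and lay between those values in the other 4 libraries. Their summed value ranged from 247995 in WT replicate 3 to 256631 in mop1 replicate 3. As a share of all normalized counts it was 1.33% to 1.40% in the mop1 libraries and 1.28% to 1.31% in WT (the normalized totals of the libraries differed).

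Steadiness was also read in a library that took no part in the choice. The rule was applied to 5 libraries at a time, and the 200 genes so found were read in the sixth. The absolute log2 deviation of that library from the mean of the other 5 had a median of 0.14 ± 0.05 (mean and SD over the 6 libraries left out). In each of the 6 libraries this median was lower for the chosen genes than for the pool. The mean it is measured from comes from the 5 libraries that made the choice. For chosen genes that mean holds fewer outlying values, so part of the gap to the pool is fixed by the choice. With mop1 replicate 1 left out the medians were 0.13 for the chosen genes and 0.22 for the pool. With mop1 replicate 2 left out they were 0.13 and 0.25. A value of 0.13 is 1.09-fold.

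For the library that stood apart the chosen genes were less steady. With mop1 replicate 3 left out the medians were 0.23 and 0.35, the highest of the 6 in both. With WT replicates 1, 2 and 3 left out they were 0.10 and 0.15, 0.13 and 0.22, and 0.12 and 0.18. In 5 of the 6 cases between 7.50% and 21.5% of the chosen genes lay more than 1.2-fold from the other libraries, where the pool had 27.1% to 48.6%. For mop1 replicate 3 the shares were 44% and 60.4%. None of the chosen genes lay more than 2-fold away in any left-out library, while 1.05% to 10.2% of the pool did. The 6 lists share most of their libraries, so the 6 values are not independent, and no test was made of them.

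**Figure D3:**
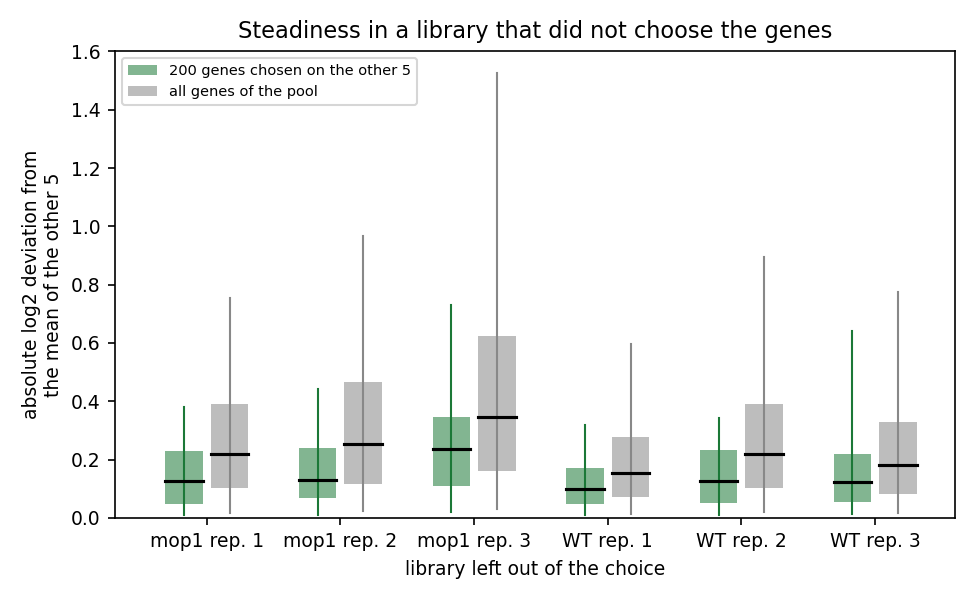
Absolute log2 deviation of each library from the mean of the other 5, for the 200 genes chosen on those 5 (green) and for all genes of the pool (grey); boxes span the quartiles, black lines are medians and thin lines run from the 5th to the 95th percentile of genes. The green median is under the grey one in all 6 libraries, from 0.10 against 0.15 in WT replicate 1 to 0.23 against 0.35 in mop1 replicate 3.

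The deviation in mop1 replicate 3 had a direction. Of the 200 genes chosen without it, 152 were higher there than in the other libraries, with a median log2 deviation of 0.16. In the pool 56.3% of genes were higher there, with a median of 0.07. Once the medians were subtracted, the median absolute deviation was 0.16 for the chosen genes and 0.33 for the pool. In WT replicate 3, 59 of the 200 genes chosen without it were higher, with a median of -0.07. In the pool 48.6% were higher there, with a median of -0.01. Other scalings placed these libraries elsewhere, relative to the mean of the 6. Against the deposited scaling, mop1 replicate 3 differed by -3.31% under TMM, -1.44% under CPM and -0.36% under upper quartile scaling. WT replicate 3, whose chosen genes were already low, differed by -0.90% under TMM, -2.0% under CPM and -2.69% under upper quartile scaling. The other libraries moved too. Under CPM mop1 replicates 1 and 2 differed by 4.71% and 5.02%, and WT replicates 1 and 2 by -3.96% and -1.98%. Size factors estimated again with DESeq2, a setting chosen after seeing the data, gave 1.86%, 3.72% and -3.22% in mop1 replicates 1 to 3. In WT replicates 1 to 3 they gave -1.28%, 0.63% and -1.54%, so they did not give back the deposited scaling. With the choice and the reading repeated under CPM and TMM, the mean over libraries of the median absolute deviation was 0.152 and 0.149, against 0.140 as deposited. The part of scaling in the direction of the deviations was not tested.

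Genes that were steady within 1 genotype were mostly other genes. The 200 with the lowest CV over the 3 WT libraries included 21 of the members, and the 200 with the lowest CV over the 3 mop1 libraries included 49. These 2 lists had 6 genes in common. The WT list, at a CV of at most 1.88% in WT, had a median CV of 14.4% in mop1, where its pool had 20.0%. In mop1, 28 of these genes (14%) were under the members' limit of 6.31%, against 8.85% of the pool. The mop1 list had a median CV of 8.52% in WT, where its pool had 11.8%, and 70 of these genes (35%) were under the limit, against 19.2%. The difference between mop1 and WT had a median size of 0.18 for the WT list and 0.17 for the mop1 list, on the log2 scale, close to the 0.20 of both pools. A CV from 3 libraries has few values behind it, and mop1 replicate 3 is among the mop1 libraries of both comparisons.

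Membership depended on how the libraries were scaled and on single libraries. Under TMM 139 of the 200 genes stayed among the 200 steadiest, under upper quartile scaling 152, under quantile normalization 128 and under division by total reads (CPM) 102. With size factors estimated again, 135 stayed. Without mop1 replicate 3 only 86 stayed, without mop1 replicates 1 and 2 123 and 119, and without WT replicates 1, 2 and 3 138, 123 and 131. Measuring spread within genotypes, with the difference between them removed, kept 91. The SD of the log2 values kept 192, and removing the counting variance kept 188.

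**Figure D4:**
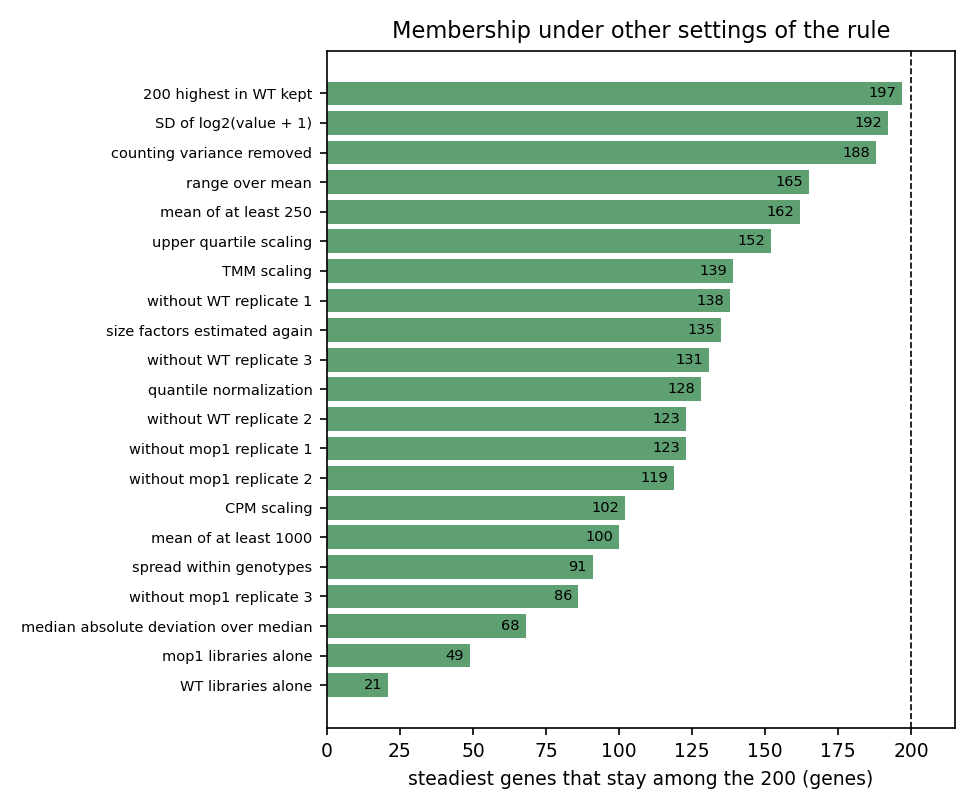
Number of the 200 members that stay among the 200 steadiest genes when 1 setting of the rule is changed; the dashed line marks 200. Of the other measures of spread, the log2 SD, the range and the CV without counting variance keep 165 to 192 genes, the spread within genotypes keeps 91 and the median absolute deviation 68; the lists from 1 genotype alone keep 21 and 49.

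A core of 47 members stood in all 10 lists made under the 4 other scalings and with each of the 6 libraries left out. All 10 of the steadiest genes described above were among them. Each of these lists reuses all or most of the libraries that made the choice, so staying in them is partly fixed by it. The lists by median absolute deviation, by spread within genotypes and from 1 genotype alone did not enter the core. The core had means of 513 to 4970.3 normalized counts, with a median of 990.4, and a CV of at most 4.83%. Under those scalings and omissions the rank of Zm00001eb207370 in the pool stayed within 2 to 14, and that of Zm00001eb312480 within 1 to 29. Zm00001eb407650 fell to rank 165 under quantile normalization. At the limit of the set, Zm00001eb292530 fell to rank 948 under CPM, and Zm00001eb096990 to 749 without mop1 replicate 3. The furthest fall of any member in these lists was that of Zm00001eb178540, from rank 141 to 1808 under quantile normalization, a gene named after its values were seen.

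In the order of gene IDs the members were scattered. With the ID numbers cut into 9 blocks of 50000, each block held members, from 1.07% of the pool's genes in the first block to 2.77% in the block from Zm00001eb200000 on. Direct neighbours in the table were 2 pairs of members, Zm00001eb230540 with Zm00001eb230550 and Zm00001eb275380 with Zm00001eb275390, named after their values were seen. The number of such pairs among genes drawn at random was not computed. Positions on chromosomes are not used here.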

How the data were processed

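Total RNA of 6 anther libraries was sequenced as paired Illumina reads, per the labels' protocols. The table the authors deposited holds a signal per gene and library, which the labels call normalized counts. The tools named are HISAT2, HTSeq, SAMtools, Trimmomatic 0.39 and DESeq2, per the submitters' processing notes. Their roles, and the build, annotation and strandedness, are not stated there, so genes that overlap or have near-identical copies are uncertain. The deposited signal values are reads divided by 1 factor per library: 100% of values in each column were whole multiples of the smallest value (tolerance 0.01 read), which gave back the whole reads.

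CV, SD and log2(value + 1) were computed from the deposited values with pandas 2.3.3. The code for the choice of genes and for the fits was run on simulated data. The planted genes were far steadier than the rest, and the planted changes were large. These runs say nothing about genes near the limit of the set or about small differences. limma 3.58.1 (trend and robust, two-sided, Benjamini-Hochberg at 0.05) was fitted in R 4.3.3 to the 23150 genes with a value of at least 10 in at least 3 libraries. edgeR 4.0.16 and DESeq2 1.42.0 were fitted to the recovered reads as alternatives. Counting variance is that of a Poisson count of the recovered reads. The fold change is on the log2(value + 1) scale.

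The members and lists were chosen with earlier results of these data known. Genes named are the 10 steadiest members, the 3 on each side of the limit, the highest and lowest by mean, and the 2 with the largest mop1 minus WT difference in each direction. Replicate numbers were taken as pairs in blocked fits only. After subtraction of group means, libraries with the same number correlated across tested genes at 0.15, 0.25 and 0.49, although mop1 replicate 1 correlated more with a WT library of another number (0.33). No libraries held identical values, and over the pool the chi-square per gene between libraries was at least 47.8.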

Additional observations from a re-analysis of the deposited data

How the results depend on the processing

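The count of 0 members with an adjusted p of at most 0.05 was 0 in each of 18 other fits: other pseudocounts, filters and scalings, edgeR, DESeq2, leaving out each library, the replicate block in limma (0), and 3 fits chosen after seeing the data (edgeR and DESeq2 with the block, and DESeq2 without the libraries numbered 3). The members' own choice fixes this. Of the 200 members, 102 stayed among the 200 steadiest under CPM, 128 under quantile normalization, 68 by the median absolute deviation, 100 at a mean of at least 1000 (which left only 100 members eligible), 21 on WT alone, 49 on mop1 alone and 91 by spread within genotypes. Leaving out 1 library kept 86 to 138. The median CV of the members, 5.28%, was 6.36% under CPM, 5.50% under TMM, 5.63% under upper quartile scaling, 5.87% under quantile normalization and 5.68% with size factors estimated again, a setting chosen after seeing the data. It was 5.04% to 5.29% without 1 library. The median deviation of a left-out library, 0.14 on the log2 scale, ranged from 0.10 to 0.23 over the libraries. It was 0.22 for genes chosen on WT alone, 0.17 for genes chosen on mop1 alone, 0.15 under CPM and 0.15 under TMM. Beyond the fewer libraries or genes that enter some of these settings, the cause was not tested. For 19 single genes, the CV ranged from 1.11% to 9.81% over 209 alternatives. In 103 of these it moved by at least the SD of that gene's CVs without 1 library. Under CPM the CV of Zm00001eb207370 went from 1.70% to 3.62%, and that of Zm00001eb312480 from 2.84% to 2.20%. With the deposited scaling, the variance was lower than the counting variance in 12 members. What depth does to their order was not tested.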
